A study of Mus musculus with 8 samples.

Results

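The Trem genes encode receptors of myeloid cells, and Tyrobp and Hcst encode the small adaptors through which such receptors signal. The genes described are Trem1, Trem2, Trem3, Treml1, Treml2, Treml4, Tyrobp and Hcst. Each had 1 probe set on the array, so 8 of the 22206 probe sets tested are described. They were taken by symbol as a gene family, and the family was chosen by the measured difference of Trem3 between knockout and wild-type clones with IL-4. That difference is therefore given as a description. RAW264 cells are a mouse line with macrophage properties. Gene expression was measured on 8 mouse Clariom S arrays in 4 groups, namely Gpr137b-knockout (Gpr137b -/-, KO) cells with and without IL-4 and wildtype (Gpr137b +/+, WT) cells with and without IL-4. Each group held 2 clones obtained by CRISPR/Cas9 editing, KO1 and KO2 or WT1 and WT2, and each clone gave 1 array with IL-4 for 48 h and 1 array without it. Cells given IL-4 were moved to a medium with albumin in place of serum. The methods leave unsaid if the untreated cells were moved too, so IL-4 and the medium cannot be told apart. Each genotype is 2 clones, so a genotype difference and a difference between clones cannot be told apart either.

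Trem1, Trem2 and Trem3 have an immunoglobulin-like domain outside the cell and a short tail, and signal through the adaptor DAP12, the product of Tyrobp. DAP12 carries an immunoreceptor tyrosine-based activation motif (ITAM), which recruits the kinase Syk once it is phosphorylated. Trem1 is known to amplify inflammatory responses of monocytes and neutrophils, and Trem2 is known for lipid sensing and phagocytosis in macrophages and microglia. Trem3 is a receptor of mouse macrophages whose human counterpart is a pseudogene. Treml1 is a receptor of platelets, Treml2 and Treml4 are relatives found on several white blood cells, and Hcst encodes DAP10, an adaptor that recruits phosphoinositide 3-kinase. IL-4 is a cytokine that drives macrophages towards the alternative, or M2, state.

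Signals are the log2 of the deposited intensities, so a difference of 1 is a 2-fold change. As background, the 95th percentile over 23 antigenomic controls was taken on each array, which gave 6.64 to 6.78. Groups were compared with limma across all probe sets, and a gene was called at a Benjamini-Hochberg adjusted p under 0.05. Gpr137b itself read 10.00 to 11.12 in KO cells and 10.32 to 11.93 in WT cells. Its probe set was thus above background in all clones and does not check the labels, since the edited part of the gene is not stated in the sources used. All 9 measured macrophage markers, among them Csf1r, Spi1 and Itgam, were above background on all 8 arrays. The measured markers of B cells, of T or NK cells and of fibroblasts were above background on no array. Of 7 dendritic cell markers, Ccr7 was above background on all arrays and the other 6 on none. Of 4 measured platelet or megakaryocyte markers, Itga2b and Gp9 were above it on some arrays, and Pf4 and Ppbp on none.

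The Trem genes lie in 1 cluster on mouse chromosome 17, and Tyrobp and Hcst are neighbours on chromosome 7. RefSeq promoters, with 250 bases before the start site and 50 after it, were at hand for 5 of the 8 genes, namely Trem1, Trem2, Treml1, Treml4 and Hcst. Those of Trem1 and Trem2 are shown because these genes had opposite signs of change with IL-4 in all 4 clones. Both are on the plus strand of GRCm38.p6, at chr17:48232489-48232788 for Trem1 and chr17:48346151-48346450 for Trem2. Capitals mark matches to GAGGAA, the core bound by PU.1 and other Ets factors, or to TGANTCA, a site of AP-1, on either strand.

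Trem1: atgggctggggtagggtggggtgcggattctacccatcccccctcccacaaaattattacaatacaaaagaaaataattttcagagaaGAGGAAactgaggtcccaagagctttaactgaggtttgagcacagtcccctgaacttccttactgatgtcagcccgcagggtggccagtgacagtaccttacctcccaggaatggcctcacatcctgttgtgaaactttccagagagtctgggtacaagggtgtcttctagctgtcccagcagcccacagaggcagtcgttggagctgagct

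Trem2: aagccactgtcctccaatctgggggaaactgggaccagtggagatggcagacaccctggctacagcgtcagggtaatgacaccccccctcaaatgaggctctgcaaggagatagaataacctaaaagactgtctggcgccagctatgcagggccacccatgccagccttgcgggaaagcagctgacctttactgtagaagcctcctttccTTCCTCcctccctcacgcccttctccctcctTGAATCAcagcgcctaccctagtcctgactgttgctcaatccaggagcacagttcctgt

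The Trem1 promoter held GAGGAA once, 162 bases before the start site. The Trem2 promoter held it once on the minus strand, from 40 bases before the start site, and TGANTCA from 9 bases before it. These 2 matches do not overlap. Treml4 held GAGGAA at 2 places, and Treml1 and Hcst held neither motif. No promoter of the 5 held TTCNNNNGAA, a spacing of the site of Stat6, the transcription factor activated by IL-4. Only this spacing was searched, so the result does not cover others. In the printed Trem1 promoter the same ends stand with a shorter gap directly before GAGGAA. That shorter spacing was not counted in the other promoters. Of 32851 mouse promoters of the same length, 28.3% held GAGGAA, 7.81% held TGANTCA and 6.95% held TTCNNNNGAA. A match describes letters in this window and not binding.

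Trem1, Trem2, Trem3, Treml2 and Tyrobp were above background on all 8 arrays. Treml1 was above background on none, between 5.42 and 6.43. Treml4 was above it on 1 array, KO2 with IL-4 at 6.76, and Hcst on 1 array, WT2 without IL-4 at 6.68. A signal this near the background is weak evidence of expression, and no fold change is given for these 3 genes. Tyrobp varied least over the arrays, from 14.57 to 15.06, while Trem3 varied most among the genes above background, from 9.07 to 12.87.

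**Figure D1:**
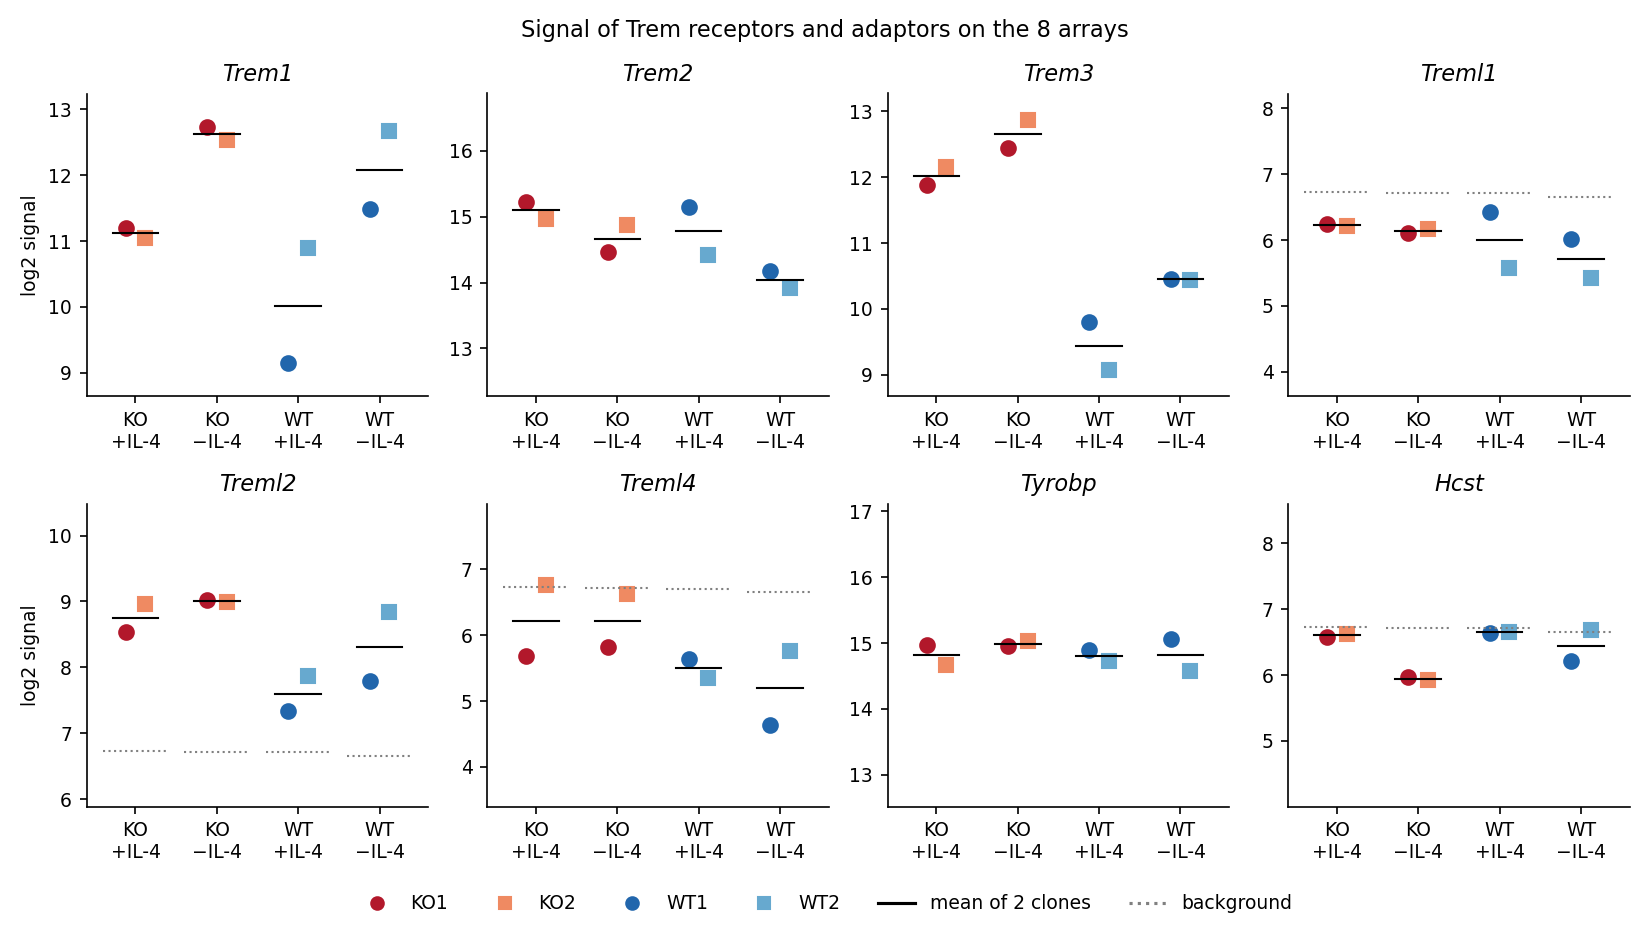
Log2 signal (vertical axis, with the same span in every panel) of the 8 genes in KO and WT clones with and without IL-4; points are single arrays, bars the mean of 2 clones, and dotted lines the mean background of the group where it falls in the panel. Trem3 lies higher in KO clones, at 11.88 to 12.87, than in WT clones, at 9.07 to 10.46, and Trem1 lies lower with IL-4 in each clone.

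Trem1 fell with IL-4. It read 11.20 in KO1, 11.05 in KO2, 9.15 in WT1 and 10.89 in WT2 on the treated arrays. Without IL-4 it read 12.74 in KO1, 12.53 in KO2, 11.49 in WT1 and 12.67 in WT2. Every array with IL-4 was thus below every array without it, which held for 1.74% of all probe sets. The change was −1.54 in KO1, −1.48 in KO2, −2.35 in WT1 and −1.77 in WT2. Fitted within clones over all 4, the log2 fold change was −1.78 ± 0.18 (SE), a signal 3.45-fold lower with IL-4, with an adjusted p of 0.00287 from limma. Of the 8 genes Trem1 was the 1 called in this comparison, in which 0.766% of all probe sets were called and 0.279% were called as lower. The call held without any single clone (adjusted p between 0.00573 and 0.0207). It was lost with the clone as a random block (adjusted p = 0.124) and with no block (adjusted p = 0.264), where lasting differences between clones enter the spread. In RNA from whole cultures, fewer cells with a transcript and less of it per cell cannot be told apart.

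Trem3 was lower with IL-4 in all 4 clones but did not pass the threshold. With IL-4 it read 11.88 in KO1, 12.16 in KO2, 9.80 in WT1 and 9.07 in WT2, against 12.45, 12.87, 10.46 and 10.44 in the same clones without IL-4. Over the 4 clones its log2 fold change was −0.83 ± 0.17 (SE), with an adjusted p of 0.0879. With a trend and a robust prior the adjusted p was 0.0135. Treml2 was also lower in 4 of 4 clones, by 0.03 in KO2 to 0.97 in WT2 on the log2 scale, with a fitted change of −0.49 ± 0.17 (SE, adjusted p = 0.454). Trem1, Trem3 and Treml2 were thus the genes above background with a lower signal in all 4 clones, a pattern that 8.44% of all probe sets showed.

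Trem2 was higher with IL-4 in all 4 clones, and did not pass the threshold. It read 15.23 in KO1, 14.97 in KO2, 15.14 in WT1 and 14.42 in WT2 with IL-4, against 14.46, 14.87, 14.17 and 13.91 without it. The difference was near 0 in KO2, at 0.09, and reached 0.98 in WT1. The fitted change was 0.59 ± 0.17 (SE), with an adjusted p of 0.297 and, with a trend and a robust prior, of 0.039. A higher signal in all 4 clones was seen for 7.93% of all probe sets. Tyrobp, the adaptor of these receptors, changed by 0.02 in KO1, −0.35 in KO2, −0.17 in WT1 and 0.16 in WT2. Its fitted change was −0.08, with a 95% interval from −0.42 to 0.25 (adjusted p = 0.957).

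**Figure D2:**
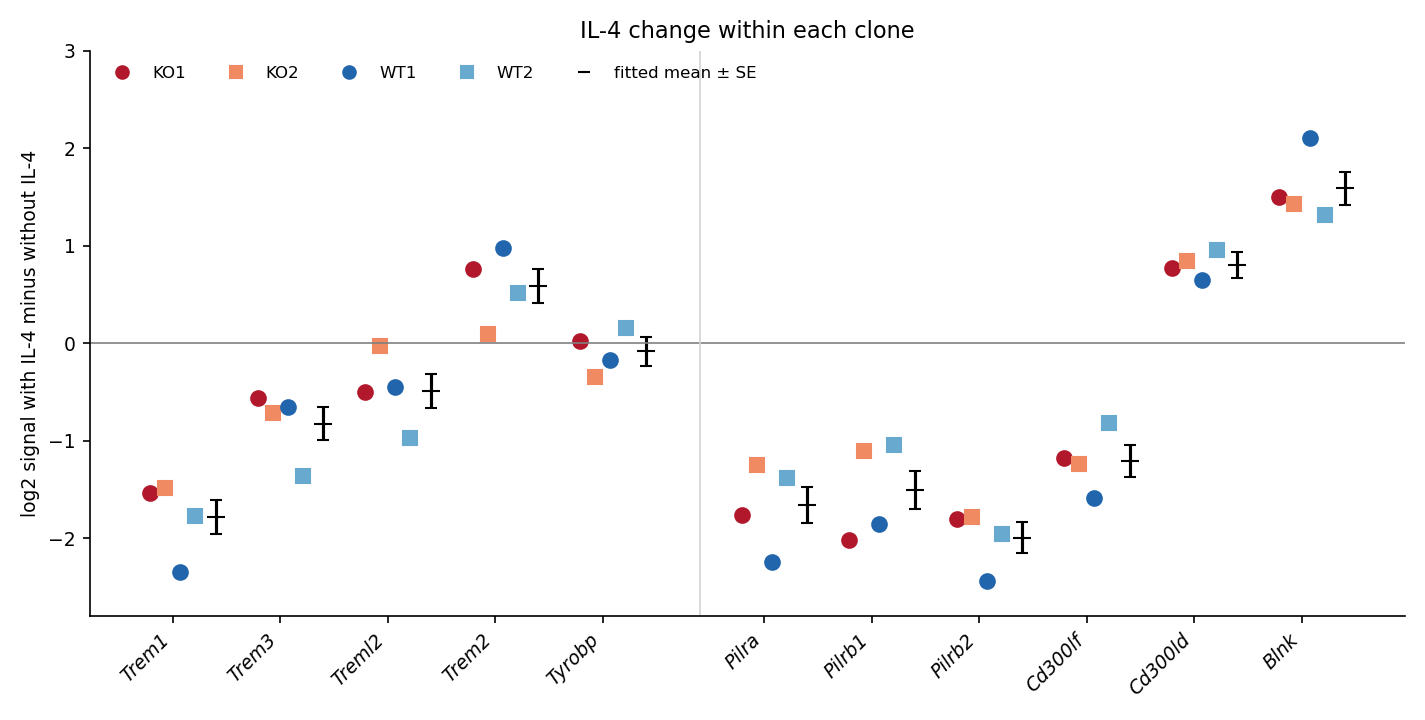
Log2 signal with IL-4 minus without IL-4 (vertical axis) in each of the 4 clones (points), with the mean fitted within clones ± SE (black), for the Trem genes above background and Tyrobp (left) and for pathway genes called in this comparison (right). Trem1 lies between −1.48 and −2.35 in all clones, and Tyrobp on both sides of 0.

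Within single genotypes, no gene of the family was called for the IL-4 effect, where 0.0315% of all probe sets were called in KO cells and 0.036% in WT cells. The Trem1 mean was 11.12 ± 0.11 in KO cells with IL-4 and 12.63 ± 0.15 without it (SD, n = 2 clones; limma, adjusted p = 1). The WT mean was 10.02 ± 1.24 with IL-4 and 12.08 ± 0.83 without it (SD, n = 2 clones; limma, adjusted p = 0.882). When arrays were compared within each clone, as a fixed replicate block, the Trem1 change of −2.06 in WT cells was called (adjusted p = 0.032) and that of −1.51 in KO cells was not (adjusted p = 0.131). Without the block, leaving out WT1 or WT2 gave a call of Trem1 in KO cells (adjusted p = 0.0446 in each case), where the calls over all probe sets went up to 47, beside 7 with all clones. Leaving out WT2 gave a call of Trem1 in WT cells (adjusted p = 0.036), with 26 calls over all probe sets, beside 8.

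The IL-4 effect was next compared between the genotypes. The KO minus WT difference of the log2 fold changes was 0.55 for Trem1, with a 95% interval from −1.22 to 2.32. It was 0.37 for Trem3 (−0.56 to 1.30), −0.31 for Trem2 (−1.25 to 0.62), 0.45 for Treml2 (−0.71 to 1.60) and −0.16 for Tyrobp (−0.93 to 0.62). All had an adjusted p of 1, and 0% of all probe sets were called, with 338 at an unadjusted p under 0.05. Taken within clones, with the clone as a fixed block, the interval was narrower for Trem1, from −0.22 to 1.32, and ran from −0.44 to 1.19 for Trem3 and from −1.16 to 0.53 for Trem2, again with an adjusted p of 1. Apart from that of Tyrobp, each of these intervals still reaches a difference of over 2-fold, so they do not show that the genotypes responded alike. The Tyrobp interval, from −0.93 to 0.62, stayed within 2-fold, which does not show an equal response either.

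Trem3 was the gene of the family with the highest signal in KO clones relative to WT clones. With IL-4 it averaged 12.02 ± 0.20 in KO cells and 9.44 ± 0.52 in WT cells (SD, n = 2 clones each), a log2 difference of 2.58, which is 6-fold. This is the difference by which the family was chosen. In that comparison Trem3 was the 1 gene of the 8 called, with 0.0315% of all probe sets, and since the choice used this call, nothing is read from it. Without IL-4, on other arrays of the same 4 clones, Trem3 averaged 12.66 ± 0.30 in KO cells and 10.45 ± 0.02 in WT cells (SD, n = 2 clones each). The log2 difference was 2.21, or 4.63-fold, with a 95% interval from 1.55 to 2.87, and the adjusted p of 0.132 from limma missed the threshold, which 0.018% of all probe sets passed. The lowest KO array lay above the highest WT array by 2.08 with IL-4 and by 1.99 without it. Both KO clones lay above both WT clones in both treatments for 4.29% of all probe sets, a pattern that for Trem3 rests in part on the arrays used for the choice. The fit without IL-4 also took its spread from all 8 arrays. The values with IL-4, here and in the next sentence, describe the chosen difference and do not test it. With IL-4 the difference was 2.72 without KO1, 2.45 without KO2, 2.95 without WT1 and 2.22 without WT2. Without IL-4 the difference was 2.42 without KO1, 2.00 without KO2, 2.22 without WT1 and 2.20 without WT2. Each such fit rests on 1 clone in a genotype, and whether the difference passed depended on the clone left out.

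Treml2, Trem1 and Trem2 also had higher means in KO clones, and with all clones in the fit none passed in either treatment. Without IL-4 Treml2 read 9.03 in KO1 and 8.99 in KO2, against 7.79 in WT1 and 8.84 in WT2 (log2 difference 0.69, adjusted p = 0.993). With IL-4 it read 8.53 in KO1 and 8.95 in KO2, against 7.34 in WT1 and 7.86 in WT2, a log2 difference of 1.14. The KO arrays lay above the WT arrays in both treatments, by 0.67 with IL-4 and by 0.15 without it. Trem1 differed by 1.10 with IL-4 and by 0.55 without it (adjusted p = 0.993), and without IL-4 its WT2 signal lay between those of the KO clones, with WT1 below both. Without WT1 the difference without IL-4 turned to −0.03 and that with IL-4 was 0.23, and without WT2 they were 1.14 and 1.98. Trem2 differed by 0.31 with IL-4 and by 0.63 without it (adjusted p = 0.993). Tyrobp differed by 0.01 with IL-4 and by 0.17 without it, with a 95% interval from −0.38 to 0.72 (adjusted p = 0.993).

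The genes around Trem3 on chromosome 17 were examined next. In the order of the RefSeq genes of GRCm38.p6, Trem1 is the next measured gene on one side, followed by A530064D06Rik and 9830107B12Rik, both below background on all arrays. On the other side follow Treml4, Treml2, B430306N03Rik, Trem2 and Treml1. B430306N03Rik, named as a neighbour, was above background on all arrays. On the treated arrays it read 8.66 (KO1) and 8.95 (KO2), against 7.34 (WT1) and 7.54 (WT2), a log2 difference of 1.37. Without IL-4 its difference was 0.84 (adjusted p = 0.993), and its IL-4 change over the 4 clones was −0.83 ± 0.21 (SE, adjusted p = 0.181). Of the 15 measured neighbours outside the family, 6 were above background on all arrays, with a median KO minus WT difference of 0.25 with IL-4 and 0.16 without it. B430306N03Rik had the largest of these 6 differences in both treatments. Nfya, a subunit of the transcription factor NF-Y on the far side of Treml1, differed by 0.34 with IL-4 and 0.07 without it, and the next gene, Oard1, by 0.52 with IL-4 and 0.53 without it (adjusted p = 0.993).

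**Figure D3:**
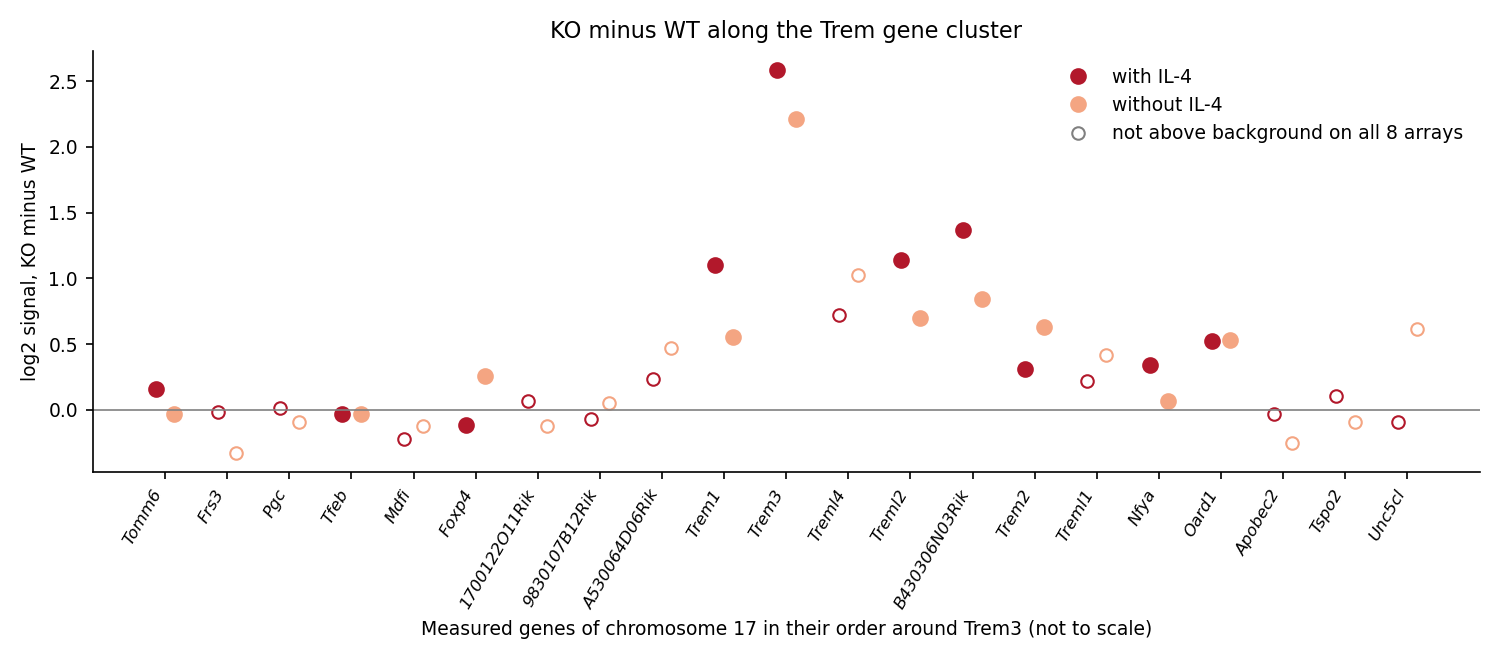
KO minus WT difference of the log2 signal (vertical axis) with and without IL-4 for the measured genes of chromosome 17 in their order around Trem3 (horizontal axis, order only); open circles mark genes not above background on all 8 arrays. Trem3 stands at 2.58 with IL-4 and 2.21 without it, and the nearest genes outside the cluster above background on all arrays, Foxp4 on one side and Nfya and Oard1 on the other, lie between −0.12 and 0.53.

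The clones of 1 genotype were not alike in these genes. Trem1 was higher in WT2 than in WT1, by 1.75 with IL-4 and by 1.17 without it, and Treml2 by 0.52 and 1.05. Trem3 was 0.73 lower in WT2 than in WT1 with IL-4 and differed by −0.03 without it. Trem1 and Treml2 were thus the genes above background at least 2-fold apart between the WT clones without IL-4, where 9.63% of all probe sets were so, and Trem1 the 1 with IL-4, where 6.03% were. Between KO2 and KO1 no gene of the family above background on all arrays was 2-fold apart. The largest such difference was 0.43 for Trem3 without IL-4. Over all probe sets 1.47% with IL-4 and 1.62% without it were 2-fold apart between the KO clones. These differences between clones were not tested.

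Of 71 measured receptors, adaptors, regulators and ligands around the Trem receptors, 6 were called with IL-4 over the 4 clones. That is 8.45% of them, beside 0.766% of all probe sets, and 10.3% of the 58 above background on any array, beside 1.61% of all such probe sets. These lists were chosen with results of these data known, so the shares are a description. Of 18 measured receptors linked to Tyrobp or Hcst, 12 were above background on any array, and over the 4 clones 1 rose and 2 fell. The list had a median log2 fold change of 0.01, beside −0.01 over all probe sets. Pilrb1 and Pilrb2, activating paired immunoglobulin-like receptors that signal through DAP12, fell, by 1.51 ± 0.20 (SE, adjusted p = 0.0125) and by 2.00 ± 0.16 (SE, adjusted p = 0.000792) on the log2 scale. Pilrb2 averaged 9.39 ± 0.27 in KO cells with IL-4, against 11.18 ± 0.26 without it, and 6.38 ± 1.41 in WT cells with IL-4, against 8.58 ± 1.07 without it (SD, n = 2 clones each), and it was lower with IL-4 in 4 of 4 clones. WT1 with IL-4 was below background for Pilrb2, as were both WT arrays with IL-4 for Pilrb1, so the signal there is only a bound. Between genotypes both had higher means in KO cells and neither passed, with log2 differences without IL-4 of 2.17 for Pilrb1 (adjusted p = 0.348) and 2.60 for Pilrb2 (adjusted p = 0.971). Cd300ld, an activating receptor of the CD300 family, rose (log2 fold change 0.80, adjusted p = 0.039), and lost its call without any 1 of the clones (adjusted p between 0.0773 and 0.269).

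Of 14 measured inhibitors of ITAM signalling, all above background on some array, 2 fell with IL-4 and none rose, with a median of −0.09. Pilra, the inhibitory partner of the Pilrb receptors, read 11.49 in KO1, 11.77 in KO2, 8.97 in WT1 and 10.49 in WT2 with IL-4, against 13.25, 13.02, 11.21 and 11.88 without it (log2 fold change −1.66 ± 0.19, SE, adjusted p = 0.00555). Its signal was thus lower with IL-4 in 4 of 4 clones. Pilra, Pilrb1 and Pilrb2 are close relatives, and cross-hybridization between their probe sets was not tested. Cd300lf, an inhibitory receptor of the CD300 family, fell by 1.21 ± 0.16 (SE, adjusted p = 0.0127).

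Of 28 measured kinases and adaptors after the ITAM, 26 were above background on any array, 1 rose and none fell, with a median of −0.11. The gene was Blnk, an adaptor that links Syk to phospholipase C gamma. It read 12.13 in KO1, 12.08 in KO2, 12.88 in WT1 and 12.30 in WT2 with IL-4, against 10.63, 10.65, 10.78 and 10.98 without it. Its signal was thus higher with IL-4 in 4 of 4 clones, a pattern that 7.93% of all probe sets showed. The fold change was 3.01 (adjusted p = 0.00439 from limma). Of 11 measured Trem ligands and shedding proteases, none was called, and the median was −0.06. In this list the largest IL-4 changes among genes above background were −0.23 for Hmgb1, a nuclear protein proposed as a ligand of Trem1, and −0.25 for Psen2, a presenilin. Adam17 and Adam10, proteases known to shed Trem2, changed by −0.22 and 0.11 with IL-4, and their KO minus WT differences without IL-4, −0.26 and 0.22, were the largest of the list among genes above background. No gene of these lists was called between KO and WT cells in either treatment. Of the 6 pathway genes called, Blnk alone held with a random block (adjusted p = 0.00751) and with no block (adjusted p = 0.0132). Besides Cd300ld, leaving out KO1 ended the calls of Pilra (adjusted p = 0.0538), Pilrb1 (0.091) and Cd300lf (0.11), leaving out KO2 that of Cd300lf (0.0877), and leaving out WT1 that of Pilrb1 (0.0546).

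**Figure D4:**
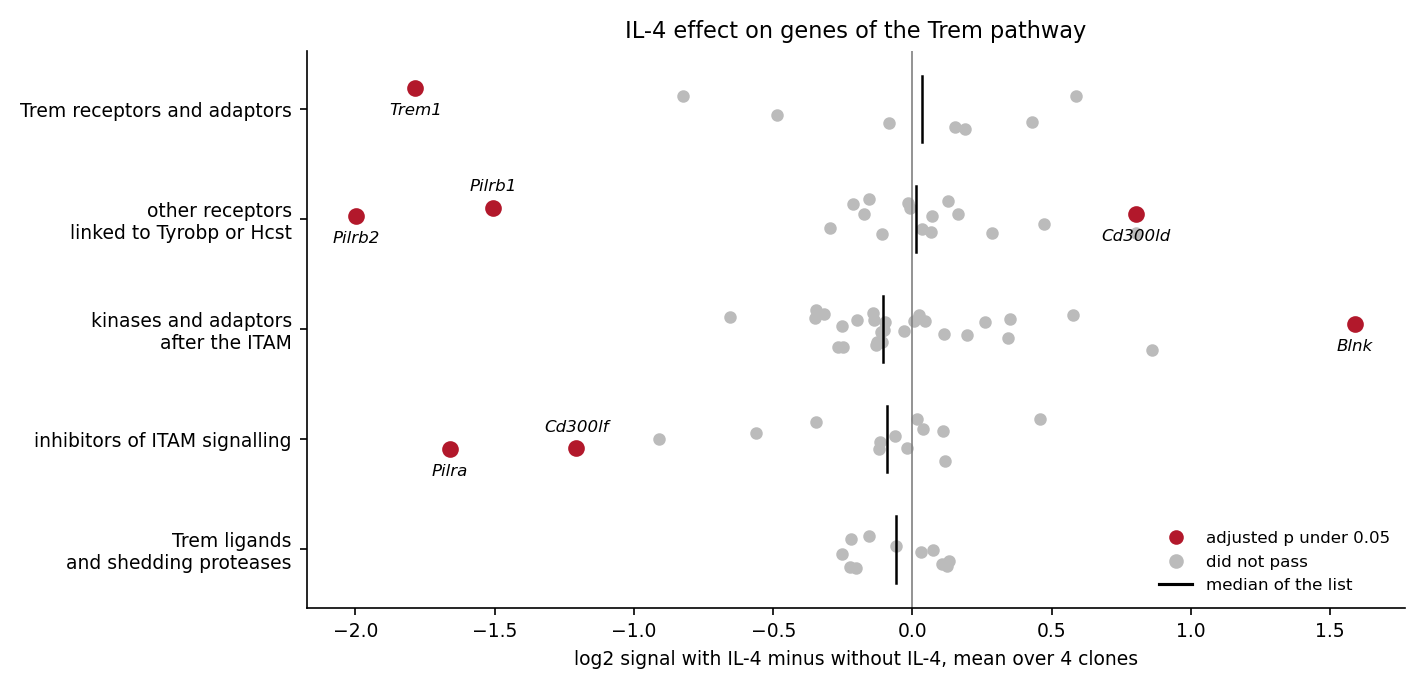
Log2 signal with IL-4 minus without IL-4 as a mean over 4 clones (horizontal axis) for each measured gene of the family and of the pathway lists (rows); red points passed an adjusted p of 0.05 and are named, and vertical bars are list medians. The medians lie between −0.11 and 0.03 and take in genes below background, in the family Treml1, Treml4 and Hcst on all or most arrays. Trem1, Pilra, Pilrb1, Pilrb2 and Cd300lf lie below −1.2.

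Markers of other cells were read beside these results. The summed linear signal of 9 osteoclast markers lay between 46136 and 48144 in KO cells with IL-4, against 17431 to 21440 in KO cells without it. In WT cells it lay between 89057 and 103871 with IL-4, against 39944 to 59641 without it. Of these markers Acp5, Calcr, Ocstamp, Oscar and Mmp9 were below background on all arrays, and 3 were above it on all. The sums were mostly Atp6v0d2, a proton pump subunit, which made up 90.1% to 96.5% of them with IL-4 and 58.2% to 79.2% without it. Of the 9 markers 5 had a higher and 4 a lower signal with IL-4, a count that includes those below background on all arrays. The others had no shared direction either. Atp6v0d2 and Ctsk were higher, by 1.60 and 0.18 on the log2 scale. Dcstamp fell (log2 fold change −1.42, adjusted p = 0.0141), and Nfatc1 was lower without passing (−0.40, adjusted p = 0.641). The summed signal of 8 neutrophil or precursor markers lay between 1229 and 2028 in KO cells with IL-4, against 901 to 1954 without it. In WT cells it lay between 482 and 4370 with IL-4, against 442 to 1101 without it. The ranges with and without IL-4 overlapped in both genotypes, but they do not pair the arrays of a clone. Within clones the sum was higher with IL-4 in WT1, WT2 and KO1 and lower in KO2. At the highest sum Csf3r alone made up 92.0% of it, while S100a8 lay on the other side of 0 without passing (−1.45 on the log2 scale, adjusted p = 0.198). Of the 8 markers, Elane, Prtn3, Camp and Ltf were below background on all arrays, while S100a8, S100a9, Mpo and Csf3r were above it on some. The part of these markers in the change of Trem1 was not tested.

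The genes most like Trem3 in pattern were Loxl3, Alox5, Ctsh, Ms4a6b and 1600014C10Rik. Likeness was the root mean square difference of the log2 signals over the 8 arrays, after each gene was centred on its own mean, among 8755 named probe sets above background in a group. It was 0.38 for Loxl3, a lysyl oxidase relative, 0.42 for Alox5, the 5-lipoxygenase gene, and 0.45 for Ctsh, the cathepsin H gene. Alox5 averaged 13.64 in KO cells and 11.60 in WT cells with IL-4, and 14.42 in KO cells and 12.91 in WT cells without it. The genes most like Trem1 were Cd300lf (0.36), Gbp7, an interferon-induced GTPase gene (0.43), Mfsd6 (0.45), Pilra (0.50) and Wfdc17 (0.50). The arrays compared are 8 from 4 clones, and the 2 arrays of a clone share its lasting state.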

How the data were processed

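RNA of 4 RAW264 clones was hybridized to 8 Clariom S mouse arrays, 1 per clone and treatment. The authors processed the raw files with SST-RMA in the Transcriptome Analysis Console, and RMA is the tool listed in the submitters' processing notes. Deposited intensities were linear, and their log2 was taken here. A genome build was not stated in the sources used. Of 28846 rows, 6640 control rows were left out, and 2634 of the 22206 probe sets tested have no gene symbol here.

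All 8 arrays entered each fit (limma 3.58.1, R 4.3.3), with Benjamini-Hochberg adjustment over all probe sets. The fit had 1 mean per group and no block, except for the IL-4 effect over all 4 clones, which had the clone as a fixed block. The labels give a replicate number and the paper names the clone of each sample, so the 2 arrays of a clone are a pair. Their deviations from the group means correlated at 0.161 in KO and 0.354 in WT cells over all probe sets. Precision is limited by 2 clones per genotype, and exact permutation of 2 clones against 2 cannot give a two-sided p below 0.333. Fits were tested on simulated data. Members and lists were chosen with earlier results of these data known. Pathway genes are named if called, or else by the 2 largest changes of a list in the IL-4 effect over all clones and in KO minus WT without IL-4. As alternatives, a trend and robust prior, quantile normalization, removal of the dimmest 40% of probe sets, the clone as a random, fixed or no block, a fold change of 2 at an unadjusted p under 0.05 as the call, and the removal of each clone were tried.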

Additional observations from a re-analysis of the deposited data

How the results depend on the processing

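Of 260 alternative values of the log2 fold changes of the 5 genes above background, 235 kept their direction and their side of the threshold, 9 newly passed it, 5 lost it and 11 changed sign. The sign changes came when a clone was left out, and concern values that had not passed. For Tyrobp the range without 1 clone was −0.35 to 0.0247 for the IL-4 effect in KO cells, −0.17 to 0.16 in WT cells, −0.16 to 0.0044 over all 4 clones and −0.34 to 0.0305 for the difference of the effects, and −0.14 to 0.16 and −0.0744 to 0.42 for KO minus WT with and without IL-4. For Trem2 it was −0.65 to 0.0222 for the difference of the effects and −0.0470 to 0.67 for KO minus WT with IL-4, and for Trem1 it was −0.0341 to 1.14 for KO minus WT without IL-4. The number of Trem genes called for the IL-4 effect over all 4 clones (1, with 170 probe sets called in all) was 3 with a trend and robust prior (367 in all), 0 with a random replicate block (55) and 0 with no replicate block (37). In KO cells (0, 7 in all) it was 1 by fold change (159) and 0 to 1 without 1 clone (0 to 47). In WT cells (0, 8 in all) it was 1 with the fixed replicate block (35), 2 by fold change (214) and 0 to 1 without 1 clone (0 to 26). For KO minus WT without IL-4 (0, 4 in all) it was 1 by fold change (172) and 0 to 1 without 1 clone (0 to 100). With IL-4 (1, 7 in all), the comparison by which the family was chosen, it was 0 without the dimmest 40% of probe sets (3), 2 by fold change (176) and 0 to 2 without 1 clone (0 to 143), the 2 being Trem1 and Trem3 without WT2. KO minus WT cannot be estimated with the clone as a fixed block. Without a clone, the clone left alone in its genotype is assumed to vary like the others. Treml1, Treml4 and Hcst are limited by signals at background.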

Other observations

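Among the marker genes of macrophages and of other cells, 4 were called for the IL-4 effect over all 4 clones, and they are named after their values were seen. In this comparison 0.766% of all probe sets were called. Adgre1 was 1 of 9 measured macrophage markers, Csf3r 1 of 8 neutrophil or precursor markers, and Atp6v0d2 and Dcstamp 2 of 9 osteoclast markers. None was called of 7 dendritic cell, 4 B cell, 6 T or NK cell, 4 platelet or megakaryocyte and 4 fibroblast markers. Csf3r, the receptor of granulocyte colony-stimulating factor, rose 3.41-fold (adjusted p = 0.00742 from limma). It read 10.73 in KO1, 9.75 in KO2, 11.97 in WT1 and 7.66 in WT2 with IL-4, against 8.61, 8.55, 9.61 and 6.27 without it, the last below background. Atp6v0d2, a subunit of the vacuolar proton pump known from osteoclasts and macrophages, rose 3.02-fold (adjusted p = 0.00566), and Adgre1, a surface marker of macrophages, rose 2.01-fold (adjusted p = 0.0291). Dcstamp, which is known for the fusion of osteoclasts and giant cells, fell by 1.42 on the log2 scale (adjusted p = 0.0141), with lower signals in 4 of 4 clones. With no replicate block Csf3r, Adgre1 and Dcstamp lost their calls (adjusted p = 1, 0.603 and 0.797), also with a random block (0.862, 0.337 and 0.471). All 3 lost them without KO1 (0.0668, 0.242 and 0.0538), Adgre1 and Dcstamp without KO2 (0.092 and 0.0865), and Adgre1 without WT1 (0.105).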
